A study of Mus musculus with 8 samples.

Results

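The 8 genes described here, Ccl17, Ccl24, Chil3, Mrc1, Il4ra, Dcstamp, F13a1 and Clec10a, are genes that macrophages express in the state called alternative activation. They were matched to probes by gene symbol, through the RefSeq accession that the array gives for each probe. The 8 were chosen with earlier results of these data known. The array held 10 probes for them among 55681, and 8 of the 21154 symbols named on the array. RNA from primary microglia, the resident macrophages of the brain, of C57BL/6 mice was measured on 8 one-colour Agilent arrays. The cells had been kept for 3 h with 1 of 4 additions: PBS alone, 20 µg/ml recombinant Fc (the constant part of an antibody), 20 µg/ml Fc fused to residues 71 to 132 of the secreted protein Ecrg4, written Ecrg4(71-132), or 20 µg/ml Fc fused to residues 133 to 148, written Ecrg4(133-148). Each treatment had 2 arrays, 1 in set 1 and 1 in set 2, so that each set held all 4 treatments once. The labels give no age, sex or number of mice and do not state whether the sets are separate cultures. The p-values therefore describe only the spread among these samples, which may be technical.

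In alternative activation, interleukin-4 or interleukin-13 binds a receptor that contains the chain encoded by Il4ra, JAK kinases phosphorylate the transcription factor STAT6, and STAT6 enters the nucleus and acts on its target genes. Among the genes known to respond in mouse macrophages are the chemokine genes Ccl17 and Ccl24, the chitinase-like gene Chil3, and the lectin receptor genes Mrc1 and Clec10a. In the brain, Mrc1 and Clec10a are better known from macrophages of the meninges and vessels, and from monocyte-derived cells, than from microglia of the tissue itself.

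Levels are given as the log2 signal of the gene's probe minus the 75th percentile of the array, so that 0 is that percentile. The level of a single probe is compared only with its own level on other arrays. The sums over marker genes below add levels of different probes, so bright probes weigh most in them. By the scanner software's flag, each array had 24243 to 29474 probes well above background, and no spot was saturated. Over the arrays the 75th percentile lay between 494.6 and 809.3 intensity units. Arrays of one set correlated with each other at 0.994 to 0.997 in set 1 and 0.975 to 0.990 in set 2. The 2 arrays of a treatment, which lie in different sets, correlated at 0.953 to 0.962. Limma with Benjamini-Hochberg adjustment called 12160 of 19541 genes different between the sets at an adjusted p under 0.05, which is 62.2% of the genes tested. With so few arrays, their number sets the precision.

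Marker genes of several cell types also differed between the sets, as did 62.2% of all genes tested. Over all genes, 34.9% were called higher in set 2 and 27.3% lower, and these shares stand beside each count of called markers below. Of the 13 microglial markers, 13 were well above background on all 4 arrays of set 1 and 9 on all 4 of set 2. Limma called 10 of them lower and 2 higher in set 2, and their summed level was 527 to 560 times the 75th percentile in set 1 and 441 to 518 times in set 2. Of the 8 tested markers of border macrophages, 6 were lower and 2 higher in set 2, with sums of 264 to 289 and 263 to 279. Of 5 tested monocyte markers, 4 were lower in set 2, with sums of 46.3 to 55.4 and 9.80 to 10.7. All 6 fibroblast markers were lower in set 2, with sums of 23.9 to 51.7 and 0.42 to 0.62. Dendritic cell markers summed to 16.1 to 18.7 in set 1 and 24.4 to 26.4 in set 2, where 3 of 4 tested were higher and 1 lower, while Xcr1 and Cd209a were well above background on no array. Of 10 astrocyte markers 8 were lower and 2 higher in set 2, although their sum was 33.6 to 51.5 in set 1 and 72.5 to 76.8 in set 2. Only 2 of the 10, Aldoc and Aldh1l1, were well above background on all 4 arrays of set 2. Their mean log2 levels there were 5.93 and 3.73, and they were 1.56 and 1.17 higher than in set 1. Among those lower in set 2, Atp1b2 fell by 7.47, Gfap by 7.02 and Aqp4 by 4.30, so the sum does not show more astrocyte signal in general. Of 7 tested oligodendrocyte markers 3 were higher and 2 lower, with sums of 39.7 to 42.1 and 94.1 to 113. Of 4 tested neuronal markers 1 was higher and 3 lower, with sums of 4.16 to 5.44 and 4.16 to 8.00 and Syt1 well above background on no array. Neutrophil markers (1 higher and 1 lower of 4) summed to 19.2 to 22.3 and 23.6 to 30.5, with Mpo well above background on no array, and endothelial markers (1 higher and 1 lower of 3) to 1.80 to 2.12 and 5.77 to 6.62, with Tek on none. Single genes carried most of some sums. These were Flt1 (mean log2 level 0.75 in set 1 and 2.53 in set 2) for endothelial, Cd24a (4.08 and 4.51) for dendritic and Hp (5.08 and 2.79) for monocyte markers. The endothelial marker Cdh5 was well above background on no array of set 2. Such sums do not show the signal of a cell type in general. The part of these markers in the differences between the sets given below was not tested. In RNA of a whole culture, fewer cells of a type and less RNA per cell cannot be told apart.

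The 8 genes differed between the sets in both directions, and none was called between treatments. Set 2 had higher Dcstamp, Chil3 and Ccl17 and lower F13a1, Ccl24 and Clec10a, each by more than 4-fold. Mrc1 was 1.42-fold higher in set 2, and Il4ra differed by 1.16-fold. With the treatment as a covariate, limma called 5 of the 8 higher and 3 lower in set 2, beside 34.9% and 27.3% of all genes tested. The 4 arrays of one set did not overlap those of the other for 4 of the 8 genes upward and 3 downward, as for 32.9% and 25.8% of all genes. A difference between the sets was thus common among all genes. For the size of the difference, 3 of the 8 were higher in set 2 with no overlap and means over 4-fold apart, as were 1.97% of all genes, and 3 were lower by the same measure, as were 5.8%. Because the 8 genes were chosen with earlier results of these data known, these shares cannot show an excess among them. The median difference of the 8 was 0.36 on the log2 scale, against 0.07 for all genes tested, and it hides changes of opposite sign. All 8 genes were well above background on all 8 arrays.

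**Figure D1:**
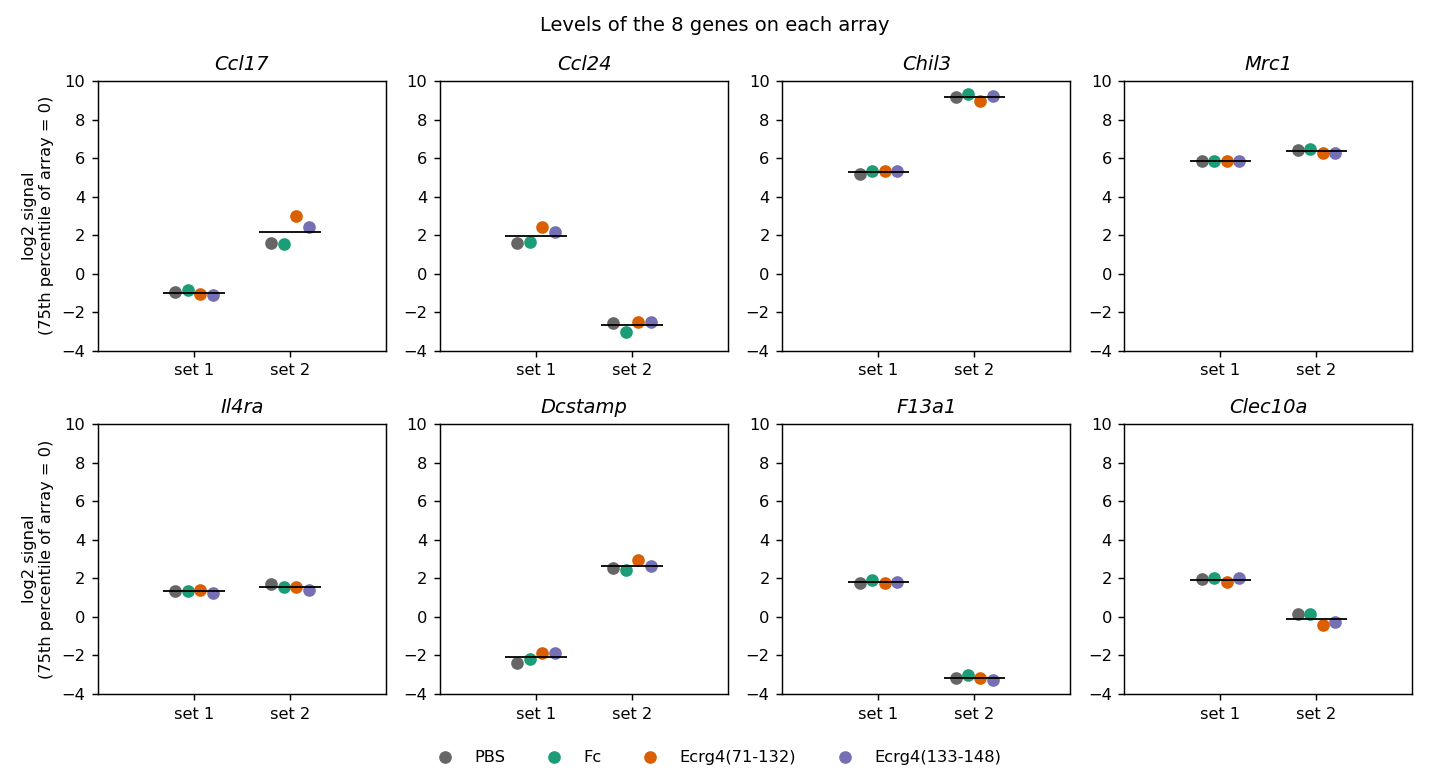
Each panel shows 1 gene and each point 1 array: the vertical axis is the log2 signal relative to the 75th percentile of the array, points are coloured by treatment, and the horizontal line is the mean of the 4 arrays of a set. Dcstamp lay between -2.38 and -1.87 in set 1 and between 2.42 and 2.94 in set 2, F13a1 and Ccl24 went the other way, and the widest spread between treatments within a set was that of Ccl17 in set 2, from 1.56 to 3.02.

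Ccl17 and Ccl24 encode chemokines, secreted proteins that attract other leukocytes: Ccl17 acts on the receptor Ccr4 of T cells and Ccl24 on the receptor Ccr3 of eosinophils. Ccl17 stood at -0.93 with PBS, -0.83 with Fc, -1.06 with Ecrg4(71-132) and -1.11 with Ecrg4(133-148) in set 1. The set 2 levels in that order were 1.58, 1.56, 3.02 and 2.42. Every array of set 2 was above every array of set 1, and within set 2 both Ecrg4 arrays lay above both controls. The difference between the sets was 3.12 (SE 0.33; limma, adjusted p = 0.00152), or 8.72-fold, which ranked 108 among the 19541 genes.

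Ccl24 ran the opposite way. In set 1 it stood at 1.60 with PBS, 1.67 with Fc, 2.42 with Ecrg4(71-132) and 2.14 with Ecrg4(133-148), and in set 2 at -2.57, -3.02, -2.50 and -2.49. All arrays of set 1 were above all arrays of set 2, and in each set the Ecrg4 arrays were the upper pair. The level fell by 4.60 from set 1 to set 2 (SE 0.13; limma, adjusted p = 7.96e-05), so that set 1 was 24.3-fold higher, and after normexp background correction it fell by 3.82. The 2 chemokine genes, both known targets of STAT6, thus differed between the sets with opposite signs.

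Chil3, also called Ym1, encodes a secreted chitinase-like protein that binds sugars and is used as a marker of alternative activation in the mouse. It stood at 5.18 with PBS, 5.32 with Fc, 5.32 with Ecrg4(71-132) and 5.33 with Ecrg4(133-148) in set 1. The set 2 levels in that order were 9.18, 9.32, 8.96 and 9.20. The arrays of a set kept close together, with SDs of 0.070 and 0.15 (n = 4), and the sets were far apart. The difference was 3.88 (SE 0.078; limma, adjusted p = 5.7e-05), or 14.7-fold. The gene has a near-identical neighbour, Chil4, whose probe was 6.01 higher in set 2, and how far each probe also binds the other transcript is not known here.

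The stretch before the start of transcription is shown for Ccl17 and Chil3, the 2 genes that rose in set 2 for which it held a match to a STAT motif. Sequences are from RefSeq on the build GRCm38.p6, where 5 of the 8 genes were found, and cover the 250 bases before the annotated start on the gene's own strand. The letters TTCNNNNGAA (a spacing that STAT6 is known to bind) and TTCNNNGAA (the spacing of other STAT proteins) were searched on both strands, and capitals mark the matches. Both motifs read the same on either strand.

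Ccl17, chr8:94810203-94810452, plus strand: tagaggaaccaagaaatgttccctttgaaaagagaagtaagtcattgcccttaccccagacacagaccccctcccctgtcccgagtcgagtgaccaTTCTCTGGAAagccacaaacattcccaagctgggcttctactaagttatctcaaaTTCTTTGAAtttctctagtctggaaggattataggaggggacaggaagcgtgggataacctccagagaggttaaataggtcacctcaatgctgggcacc

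Chil3, chr3:106167565-106167814, minus strand: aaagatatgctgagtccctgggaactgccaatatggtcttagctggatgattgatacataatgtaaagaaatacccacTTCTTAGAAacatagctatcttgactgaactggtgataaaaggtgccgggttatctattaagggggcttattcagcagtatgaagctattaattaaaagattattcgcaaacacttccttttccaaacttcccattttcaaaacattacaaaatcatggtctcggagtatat

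The Ccl17 window held 1 match to each motif, the first 145 to 154 bases and the second 91 to 99 bases before the start. The Chil3 window held 1 match to TTCNNNGAA, 164 to 172 bases before the start. The windows of F13a1, Il4ra and Mrc1 held neither. Of 32851 windows of this length in the same source, 5.85% held TTCNNNNGAA and 7.02% held TTCNNNGAA. The PU.1-type letters GAGGAAGT and the AP-1-type letters TGANTCA, found in 2.44% and 6.75% of windows, matched in none of the members' windows. These matches are descriptions of letters and show no binding.

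Il4ra, the receptor chain that interleukin-4 and interleukin-13 share, varied least between the sets. Its brighter probe stood at 1.32 with PBS, 1.34 with Fc, 1.41 with Ecrg4(71-132) and 1.23 with Ecrg4(133-148) in set 1. The set 2 levels in that order were 1.70, 1.54, 1.53 and 1.40. The sets overlapped, since the Ecrg4(133-148) array of set 2 lay just below the Ecrg4(71-132) array of set 1. The difference was 0.22 (SE 0.062; limma, adjusted p = 0.0328). The call did not hold with median scaling (0.14, adjusted p = 0.206), without the filter on dim probes (adjusted p = 0.0826) or in 6 of the 8 fits that left out 1 array. The dimmer second probe ran from -2.03 to -1.76 in set 1 and from -1.57 to -1.38 in set 2. The sets did not overlap on it and differed by 0.45, so the probes shared the direction of the set difference.

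Mrc1 and Clec10a encode C-type lectins, receptors that take up glycoproteins: Mrc1 (CD206) binds mannose and Clec10a (CD301) galactose-type sugars. Mrc1 stood at 5.84 with PBS, 5.87 with Fc, 5.83 with Ecrg4(71-132) and 5.87 with Ecrg4(133-148) in set 1. The set 2 levels in that order were 6.42, 6.49, 6.26 and 6.28. The SD in set 1 was 0.021 (n = 4), and all arrays of set 2 were higher. The difference was 0.51 (SE 0.060; limma, adjusted p = 0.00204).

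Clec10a was lower in set 2. It stood at 1.94, 2.001, 1.80 and 2.002 in set 1, in the order PBS, Fc, Ecrg4(71-132), Ecrg4(133-148), and at 0.13, 0.14, -0.45 and -0.28 in set 2. No array of set 2 reached the lowest of set 1. The level fell by 2.05 (SE 0.11; limma, adjusted p = 0.000242), so that set 1 was 4.14-fold higher. Its neighbour Mgl2, a closely related lectin gene, was 0.69 lower, and signal shared between the 2 probes cannot be told apart.

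Dcstamp encodes a membrane protein that macrophages and osteoclast precursors need in order to fuse into multinucleated cells. It stood at -2.38 with PBS, -2.21 with Fc, -1.90 with Ecrg4(71-132) and -1.87 with Ecrg4(133-148) in set 1. The set 2 levels in that order were 2.52, 2.42, 2.94 and 2.66. The sets were separate, and in each the Ecrg4 arrays lay above the controls. The difference of 4.73 (SE 0.081; limma, adjusted p = 5.69e-05), or 26.5-fold, was the highest of the 8 genes and ranked 27 among the 19541.

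F13a1 encodes the A chain of clotting factor XIII, a transglutaminase that cross-links fibrin and is made by monocytes and macrophages. It stood at 1.78 with PBS, 1.93 with Fc, 1.78 with Ecrg4(71-132) and 1.80 with Ecrg4(133-148) in set 1. The set 2 levels in that order were -3.18, -3.02, -3.18 and -3.29. The arrays of each set lay within SDs of 0.075 and 0.11 (n = 4). The level fell by 4.99 (SE 0.049; limma, adjusted p = 3.73e-05), so that set 1 was 31.7-fold higher, which ranked 119 among the 19541 genes counted from the lowest difference. Another probe of F13a1 was well above background on no array and was not used. After normexp background correction, which compresses dim signals, the first probe fell by 4.09.

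**Figure D2:**
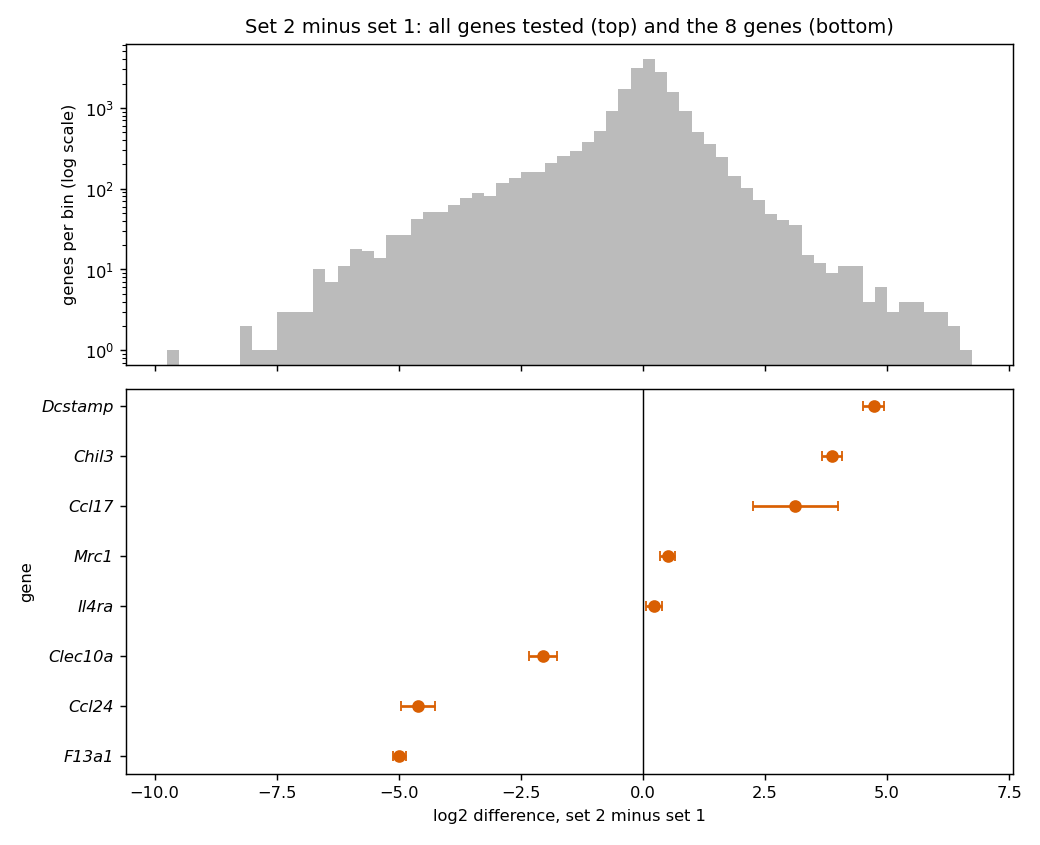
The upper panel is a histogram of the log2 difference of set 2 minus set 1 over the 19541 genes tested, with the number of genes per bin on a log scale; the lower panel gives the same difference for the 8 genes, with bars for the 95% interval of the limma fit. Dcstamp (4.73), Chil3 (3.88) and Ccl17 (3.12) lay in the right tail, F13a1 (-4.99) and Ccl24 (-4.60) in the left, and Mrc1 and Il4ra near the middle.

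The other genes of the pathway were read beside the 34.9% of all genes called higher in set 2 and the 27.3% called lower, or 62.2% either way, and these shares apply to each list that follows. Of 22 IL-4 and IL-13 signalling genes 19 were tested, of which 12 rose, 3 fell and 4 were not called, with a median of 0.55 against 0.07 over all genes. The transcription factor genes Irf4, Egr2, Pparg and Klf4 were 3.26, 2.44, 1.49 and 0.99 higher, the coactivator gene Ppargc1b 1.51, and Cish and Irs2 1.85 and 1.75. Of the receptor and kinase genes, Il13ra1 was 0.99, Il2rg 0.90, Jak1 0.55, Tyk2 0.53 and Stat6 0.32 higher. Those that fell were Socs1 by 2.10, Jak3 by 0.69 and the phosphatase gene Ptpn6 by 0.38. Il13 and Il13ra2 were well above background on no array.

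Of 27 other alternative-activation genes 20 were tested, and 10 rose and 7 fell, with a median of 0.50, beside 34.9% and 27.3% of all genes. Chil4 rose by 6.01, the protease gene Mmp12 by 4.06, the arginine transporter gene Slc7a2 by 2.50, Il1rn by 2.23 and the scavenger receptor gene Cd36 by 1.77. The chemokine gene Ccl22 was not well above background in set 1 and was at least 3.66-fold higher in set 2; such a bound sets the mean of the bright arrays against the lowest signal well above background on the dim ones. Cdh1, Cd200r1, Matk and Tgm2 rose by 1.35, 1.18, 1.08 and 0.89. The decoy receptor gene Il1r2 was not well above background in set 2 and was at least 25.3-fold lower there. Stab1 fell by 2.84, Folr2 by 1.34, Mgl2 by 0.69, Arg1, the arginase of alternative activation, by 0.64, Alox15 by 0.55 and Fn1 by 0.25. Retnla, another gene used as a marker of this state, was well above background on no array, as were Il10, Cd209a and Cd209e.

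Genes related to single members were examined next. Of the 8 receptors and ligands grouped with Ccl17 and Ccl24, 3 were tested, Ccl22 and Ccl8 (1.89) rose, Ccr8 differed by 0.07, and Ccl1, Ccl11 and Ccl26 were well above background on no array. Of 9 tested cell fusion and osteoclast genes, 5 rose and 0 fell, beside 34.9% of all genes called higher, 27.3% lower and 62.2% in either direction. Those that rose were Atp6v0d2 by 2.93, Ocstamp, the partner of Dcstamp, by 2.71, the protease gene Ctsk by 2.27, the phosphatase gene Acp5 by 2.48 and Oscar by 0.33. Of 10 tested C-type lectin genes, 6 rose and 3 fell, among them Clec4b1 (2.55, and 4.30 by a dimmer probe) and Clec4n (2.09) upward, while Clec4a1 fell by 2.25. Clec12a was not well above background in set 1 and was at least 4.53-fold higher in set 2, and Ly75, also higher, was well above background on 1 of the 4 arrays of set 1. Of 9 tested transglutaminase and clotting genes, 4 rose and 3 fell, among them F7 (2.06) and F10 (1.69) upward and Tgm1, which fell by 2.05 and was well above background on 3 of the 4 arrays of set 2, and Thbs1, which fell by 1.85.

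The receptors of the growth factors GM-CSF and M-CSF were examined because GM-CSF is also known to raise Ccl17. Of 9 tested genes of that list 6 rose and 2 fell in set 2, with a median of 1.23, beside 34.9% and 27.3% of all genes. Itgax, which encodes CD11c, rose by 4.41 and the GM-CSF receptor genes Csf2ra, Csf2rb2 and Csf2rb by 1.86, 1.58 and 1.28, with Pim1 (1.23) and Socs2 (1.21). Csf1, a ligand of the M-CSF receptor, fell by 2.04. Il34, the other ligand, was not well above background in set 2 and was at least 1.34-fold lower there. The receptor gene Csf1r differed by -0.01 and did not pass the test.

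**Figure D3:**
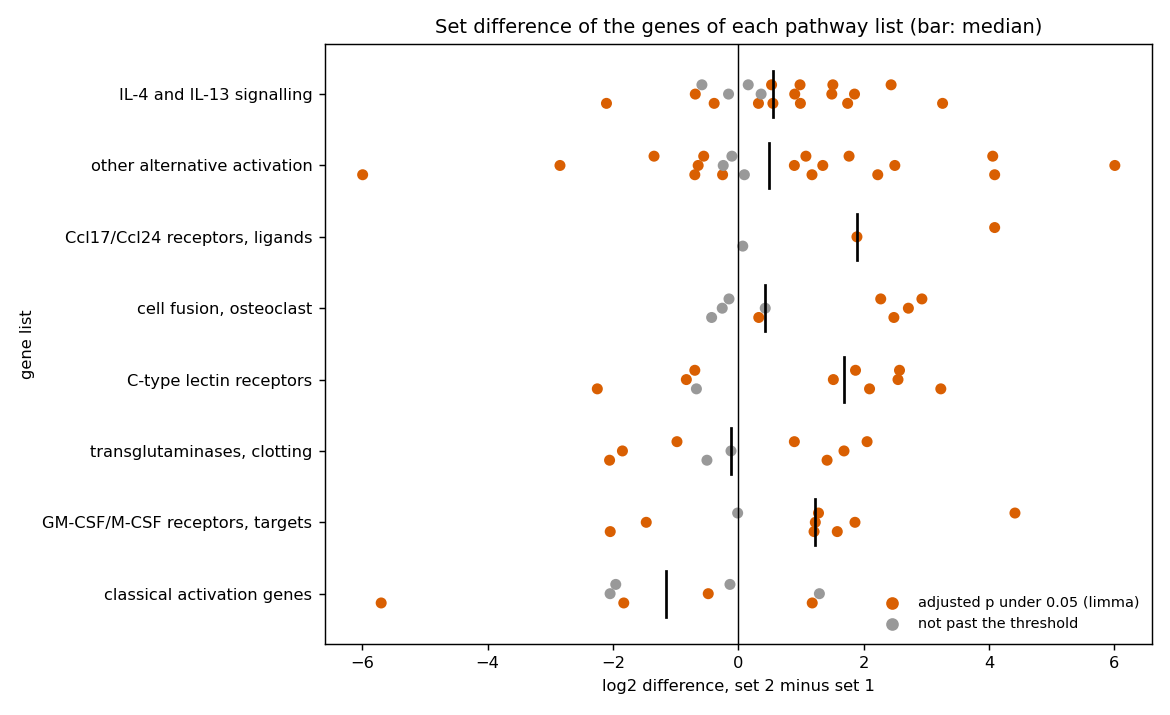
Each point is a tested gene of a list, placed on the horizontal axis by its log2 difference of set 2 minus set 1; orange points had an adjusted p under 0.05 in limma, grey points did not, and the black bar is the median of the list. Ccl22, Clec12a, Il1r2 and Il34 are drawn at their measured values although 1 set was well above background on no array for them, and every list but the receptors and ligands of Ccl17 and Ccl24 and the cell fusion list had called genes on both sides of 0.

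The treatments were then compared for the 8 genes. Each comparison asks how the cells differed after 3 h with one addition or another, and both Ecrg4 comparisons with Fc share the Fc arrays. None of the 8 genes passed the test in Fc against PBS, Ecrg4(71-132) against Fc, Ecrg4(133-148) against Fc or Ecrg4(133-148) against Ecrg4(71-132) (limma over 19120 genes, adjusted p = 1 for each), beside 0% of all genes in each. At an unadjusted p under 0.05 there were 51, 644, 88 and 141 genes in that order, and none of the 8 was among them. With the set as a block the counts after adjustment were 0 as well, and those at an unadjusted p under 0.05 were 355, 3559, 1006 and 1210. For Ecrg4(71-132) against Fc these included Dcstamp (limma with the block, unadjusted p = 0.0169, adjusted p = 0.224) and Ccl24 (unadjusted p = 0.0218, adjusted p = 0.228). For Ecrg4(133-148) against Fc they included F13a1 (limma with the block, unadjusted p = 0.0354, adjusted p = 0.836) and Ccl24 (unadjusted p = 0.0474, adjusted p = 0.836). The spread in the first fit holds the difference between the sets, so the changes within each set are given here, each from 1 array against 1 array with no replicate.

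Between Fc alone and PBS, the 8 genes differed by between -0.45 and 0.17 within a set. Chil3 was 0.14 higher in both sets and F13a1 0.16 and 0.17 higher. Ccl24 was 0.07 higher in set 1 and 0.45 lower in set 2. The median change of the 8 genes was 0.04, against 0.03 for all genes.

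With Ecrg4(71-132) against Fc, Ccl17 was 0.23 lower in set 1 and 1.46 higher in set 2. Ccl24 was 0.76 and 0.52 higher and Dcstamp 0.31 and 0.52 higher, in set 1 and set 2. These 3 genes stood highest among the members in the mean over both sets. For Ccl24 in set 2, Fc (-3.02) lay below PBS (-2.57), and both fragments (-2.50 and -2.49) lay only just above PBS. Clec10a was 0.20 and 0.59 lower, F13a1 0.16 lower in both sets, Mrc1 0.04 and 0.23 lower, and Chil3 nearly level in set 1 and 0.35 lower in set 2. Il4ra was 0.08 higher in set 1 and nearly level in set 2, and by its dimmer probe 0.15 and 0.08 higher. The median of the 8 was -0.05, against -0.02 for all genes.

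With Ecrg4(133-148), against the same Fc arrays, Ccl17 was 0.28 lower in set 1 and 0.86 higher in set 2, Ccl24 0.47 and 0.54 higher, and Dcstamp 0.34 and 0.24 higher. Clec10a was level in set 1 and 0.42 lower in set 2, F13a1 0.13 and 0.27 lower, Mrc1 level and 0.21 lower, and Il4ra 0.11 and 0.13 lower. The dimmer Il4ra probe differed, 0.24 higher in set 1 and 0.07 lower in set 2. The median of the 8 was -0.08, against -0.004 for all genes.

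**Figure D4:**
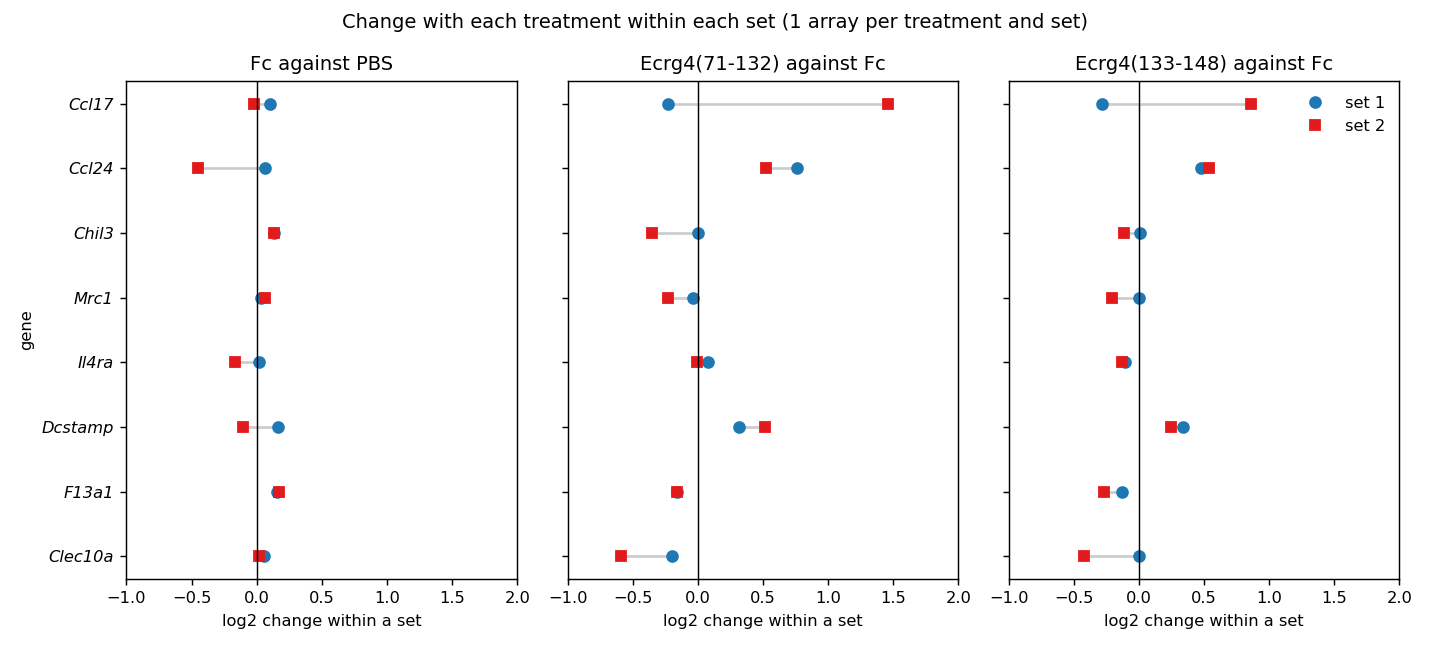
Log2 change of each gene within set 1 (blue circles) and set 2 (red squares) for Fc against PBS, Ecrg4(71-132) against Fc and Ecrg4(133-148) against Fc, 1 array against 1 array each, so no error can be given. Ccl17 moved to opposite sides of 0 in the sets with both fragments, while Ccl24 and Dcstamp lay to the right of 0 in both sets.

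The 2 fragments, which differ in the stretch of Ecrg4 that they carry, were compared directly at the same dose and time. Ccl17 was 0.05 lower with Ecrg4(133-148) than with Ecrg4(71-132) in set 1 and 0.60 lower in set 2. The mean difference was -0.33, with a 95% interval of -5.25 to 4.60 without and -1.56 to 0.91 with the set as a block. For Il4ra it was -0.16, with intervals of -0.62 to 0.31 and -0.39 to 0.07, and -0.03 by the dimmer probe. Among the other members the mean differences ran from -0.13 for Ccl24 to 0.19 for Clec10a. The widths of these intervals do not show that the fragments act alike.

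The 4 arrays of both fragments were also set against the 4 arrays of PBS and Fc, with the set as a term, a comparison added after the data were seen. The SEs here include differences between the unlike treatments that were pooled. No gene of 21537 was called (0%), with 4975 at an unadjusted p under 0.05. Dcstamp was 0.37 higher with the fragments (SE 0.077, 95% interval 0.18 to 0.55; limma, adjusted p = 0.120), by 0.41 in set 1 and 0.33 in set 2. Ccl24 was 0.48 higher (SE 0.13, 95% interval 0.16 to 0.79; limma, adjusted p = 0.139), by 0.65 and 0.30. For both genes each Ecrg4 array lay above both controls of its set, which held for 13.5% of all genes. Clec10a was 0.28 lower (adjusted p = 0.189), by 0.07 in set 1 and 0.50 in set 2.

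Whether the difference between fragments and controls itself differed between the sets was tested with the fragment arrays pooled and the PBS and Fc arrays pooled. The arrays pooled within a set had unlike treatments, so the spread in this fit includes differences between treatments. Limma called 37 of 21537 genes (0.172%), and none of the 8. Ccl17 came nearest: the fragments stood 0.20 below the controls in set 1 and 1.15 above them in set 2, and in neither set did the 2 kinds of array overlap. The difference between the sets was 1.35 (SE 0.27, 95% interval 0.67 to 2.04; limma, unadjusted p = 0.00335, adjusted p = 0.342). Of all genes, 1.95% had the same arrangement, below in set 1 and above in set 2 with no overlap. Mrc1, Clec10a and Il4ra lay below the controls without overlap in set 2 and not in set 1, with responses of -0.19, -0.50 and -0.15 in set 2. The same arrangement held for 21% of all genes, and none of the 3 passed (limma, adjusted p = 0.610, 0.595 and 0.715).

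No gene of the IL-4 and IL-13 signalling list or of the other alternative-activation list was called in any of the 4 comparisons. The medians for Ecrg4(71-132) against Fc were 0.12 over 19 genes of the first list and 0.03 over 19 of the second. Irf4, a transcription factor gene of both alternative activation and the response to GM-CSF, was 1.37 higher in set 1 and 2.66 higher in set 2 with Ecrg4(71-132), and 0.72 and 0.76 higher with Ecrg4(133-148), and passed neither test (limma, adjusted p = 1). The 8 tested genes of classical activation, the opposing inflammatory state, had medians of 2.74 with Ecrg4(71-132) and 1.16 with Ecrg4(133-148) against Fc, with 0 called. Between the sets, 1 of these 8 was higher in set 2, Cd80 by 1.18, and 3 were lower, where Cxcl10 fell by 5.70, Cd86 by 1.83 and Nos2 by 0.48.

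Finally, the genes whose levels were most like each member were listed by Pearson correlation over the 8 arrays, among 11566 genes with a symbol that were well above background throughout. The 8 arrays fall into 2 sets, so these correlations describe mainly the difference between the sets and carry no p. F13a1 was closest to C1qc, Slc24a5 and C1qa (r = 0.9997, 0.9997 and 0.9996), and Dcstamp to Ctsk, Anxa4 and Itgb2. Chil3 was closest to Cdkn2a, Atp6v0d2 and Trim29, Ccl17 to Rftn1, Rtl8c and Aamp, and Ccl24 to Nudc, Ndufs8 and Saal1. Clec10a was closest to Tmem9, Tmpo and Pola1, and Mrc1 to Ciao2a, Pramel34 and Dym. Il4ra had the lowest values, with Prb1 (0.99), Cyth1 (0.96) and Gm11595 (0.95).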

How the data were processed

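Total RNA of 8 samples was labelled with Cy3 and hybridised to Agilent arrays, per the labels' protocols. The deposited scanner files hold spot intensities on a linear scale, already background-subtracted. The submitters' processing notes name Agilent Feature Extraction 11.0.1.1 as the software. A table of log2 values, also deposited, equals log2 of these intensities minus 1 constant per array (r = 1), whose origin is not given here.

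From the processed signal, log2 minus each array's 75th percentile over non-control spots was computed. Outlying spots were left out (104 probes lost) and spots of 1 probe averaged. RefSeq accessions named 28026 probes through a table of GRCm38.p6; 27655 kept the file's name. The brightest probe that was well above background stood for a gene. Limma 3.58.1 in R 4.3.3 was fitted: 4 group means (4 residual degrees of freedom), set with treatment as covariate (3) and fragments or controls by set (4). The Benjamini-Hochberg threshold was 0.05. A probe had to be well above background on both arrays of 1 treatment, on all 4 arrays of 1 set, or on both arrays of 1 kind in 1 set. The fits were tested on simulated arrays.

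The labels call the replicate numbers sets. The set 2 minus set 1 differences correlated across genes at 0.783 to 0.862 in the 6 pairs of groups, so the sets were taken as pairs in the fits with a block. Named genes are the 8 members, list genes that passed a test (otherwise the brightest and most different), and the 3 genes most correlated with each member; Irf4 under treatment and markers were named after their values were seen. Members and lists were chosen with earlier results of these data known. Alternatives were normexp correction of median spot signals (offset 50), quantile and median scaling, the deposited table, filters, the mean of probes, moderation, no treatment term between the sets, the block and each array left out.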

Additional observations from a re-analysis of the deposited data

Results flagged for a closer look

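Ccl17 stood on opposite sides of the controls in the 2 sets: both fragment arrays lay below both controls in set 1 and above both in set 2, and the responses differed by 1.35 on the log2 scale. The difference missed the threshold after adjustment over all genes (limma, adjusted p = 0.342, and 0.285 to 0.551 over the alternatives that kept all arrays). Leaving out 1 array moved it between 1.05 and 1.65, with adjusted p from 0.0213 to 0.697.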

How the results depend on the processing

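Each member's difference between the sets kept its direction in the 9 alternatives and the 8 fits without 1 array, and for 7 of the 8 members it stayed past the threshold; Il4ra lost its call under 2 alternatives and in 6 fits without 1 array. The number of genes called between the sets was 12160 and reached 18666 without the filter on dim probes; without 1 array it was 9792 to 11820. No treatment comparison called a member under any alternative.

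With the sets as pairs (replicate block), the counts of genes called stayed at 0 in the 4 treatment comparisons and no call of a member changed. With an array also left out, Ecrg4(71-132) against Fc called 0 to 482 genes, 482 without Ecrg4(71-132) replicate 1.

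Calls for a fragment response that differs between the sets were 37, and 1 after normexp correction, 23 without the filter, 1 among probes well above background on all 8 arrays, 19 with trended robust moderation, and 2 to 221 without 1 array (2 without PBS replicate 1, 221 without Ecrg4(133-148) replicate 2). Ccl17 passed only without that last array (1.65, adjusted p = 0.0213). The pooled fragment comparison called 0 to 1 genes without 1 array, 1 without Ecrg4(71-132) replicate 2. The cause of these shifts was not tested.

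Signs of values near 0 turned as follows. With normexp correction, Dcstamp came to -0.017 in Fc against PBS and 0.039 in the response difference, and F13a1 to 0.023 between the fragments. With quantile normalization, Mrc1 came to -0.0094 in Fc against PBS and F13a1 to 0.046 in the response difference. With median scaling, Il4ra came to 0.0093 in Fc against PBS and 0.014 for both fragments against both controls, where Chil3 came to 0.048.

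Leaving out 1 array without the block sets means over different sets against each other, so that the difference between the sets enters and signs turn. The ranges over these fits and those with the block were, for Fc against PBS, -1.21 to 1.30 for Ccl17, -2.53 to 2.15 for Ccl24, -1.86 to 2.13 for Chil3, -0.27 to 0.12 for Il4ra, -0.26 to 0.36 for Mrc1, -0.89 to 0.97 for Clec10a, -2.42 to 2.48 for Dcstamp and -2.32 to 2.64 for F13a1. For Ecrg4(71-132) against Fc they were -1.42 to 2.65 for Ccl17, -1.82 to 3.10 for Ccl24, -2.17 to 1.82 for Chil3, -0.063 to 0.14 for Il4ra, -0.44 to 0.18 for Mrc1, -1.52 to 0.73 for Clec10a, -2.002 to 2.83 for Dcstamp and -2.64 to 2.32 for F13a1. For Ecrg4(133-148) against Fc they were -1.47 to 2.05 for Ccl17, -1.84 to 2.85 for Ccl24, -2.05 to 1.95 for Chil3, -0.41 to 0.20 for Mrc1, -1.35 to 0.93 for Clec10a, -2.02 to 2.60 for Dcstamp and -2.74 to 2.34 for F13a1. Between the fragments they were -2.36 to 1.71 for Ccl17, -2.60 to 2.33 for Ccl24, -1.81 to 2.06 for Chil3, -0.19 to 0.24 for Mrc1, -0.96 to 1.33 for Clec10a, -2.54 to 2.29 for Dcstamp and -2.59 to 2.50 for F13a1. The response difference ran over -0.22 to 0.057 for Dcstamp and -0.15 to 0.018 for F13a1, and both fragments against both controls over -0.10 to 0.025 for Chil3.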
